A study of Mus musculus with 7 samples.

Results

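The LIM-only genes Lmo1, Lmo2, Lmo3 and Lmo4 and 3 other genes used to tell motor from sensory neocortex, Rorb, Auts2 and Id2, were followed across 7 arrays of mouse whole neocortex. The 7 genes were taken by name: a probe set belonged to a gene when the platform annotation gave it that 1 symbol, and the brightest stood for a gene with several. Each of the 7 genes had 1 such probe set, and all 7 passed the filter on dim signal that left 16144 genes. CKO, on 4 arrays, names samples with a genotype that joins COUP-TFI and Nex-Cre; WT, on 3 arrays, is wild type. Both groups are labelled C57BL/6, and neither the age nor the form of the COUP-TFI allele is given in the sources used here. Nex-Cre, driven from the Neurod6 locus, acts in glutamatergic neurons after their last division, so progenitors, interneurons, glia and vessels keep the gene.

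COUP-TFI, the nuclear receptor encoded by Nr2f1, is high in caudal and lateral neocortex and low in frontal neocortex, and its loss in the mouse cortex enlarges frontal and motor areas at the cost of sensory ones. LIM-only proteins consist of a pair of LIM domains without a DNA-binding domain; they join LDB1 and other factors into transcription complexes, or compete with LIM-homeodomain proteins for LDB1. Area regulators are graded or patchy over the cortical sheet, and RNA of the whole neocortex averages over the sheet, so a gain in one area and a loss in another can cancel in these values. In bulk samples, fewer cells of a type and less RNA per cell cannot be told apart either.

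Arrays are named by group and label number: CKO 1, CKO 4, CKO 34 and CKO 43, and WT 6, WT 27 and WT 38. Values are RMA log2 signals, and differences are CKO minus WT. No label ties an array to an animal of its own, and the p-values therefore rest on a spread between samples that may in part be technical. Array identifiers in the labels fell into 3 sets, called lots here; lot 2 held CKO 34, CKO 43, WT 27 and WT 38, lot 1 the other CKO arrays and lot 3 WT 6. Nr2f1 had 10.63, 10.79, 10.60 and 10.70 on CKO arrays and 11.08, 11.16 and 10.88 on WT arrays, a difference of -0.36 (SE 0.074, limma adjusted p 0.435), so the targeted gene itself did not pass over all genes. Its unadjusted limma p was 0.0011, and every CKO array lay below every WT array, as for 2.99% of all genes. Whether the probe set of Nr2f1 lies in a deleted part is not known here. Of 10 markers of neocortical glutamatergic neurons 9 were tested, 4 positive and 5 negative, with a median of -0.0022; 0 passed with limma and 3 had an unadjusted p under 0.05, 2 higher and 1 lower in CKO. Of all genes tested 6.79% had an unadjusted p under 0.05. Bcl11b, the CTIP2 gene of deep-layer neurons, differed by 0.15 (SE 0.040), and Neurod6, at the driver locus, by -0.20 (SE 0.057), each without overlap between the groups. Of the 9 markers 2 lay higher and 1 lower in CKO without overlap, against 5.39% and 2.99% of all genes.

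The 4 LIM-only genes all lay lower in CKO, by 0.10 to 0.14 on the log2 scale, Rorb lay higher by 0.33, and Auts2 and Id2 differed by less than 0.04. None of the 7 passed an adjusted p of 0.05 with limma over 16144 genes, where 0.0248% of genes passed. Before adjustment 2 of 7, Lmo3 and Rorb, had a p under 0.05, against 6.79% of all genes; Lmo3 was 1 of the 2.61% lower in CKO and Rorb 1 of the 4.17% higher. The groups did not overlap for 4 of 7, against 8.38% of all genes: Lmo2, Lmo3 and Lmo4 lay lower in CKO, as did 2.99% of genes, and Rorb lay higher, as did 5.39%. Among the 2 CKO and 2 WT arrays of lot 2 all 7 did not overlap, 6 lower and 1 higher in CKO, against 30.4% of all genes. Some of these separations were narrow: on CKO 43 and WT 38, Lmo1 had 10.0583 and 10.0607, and Rorb 10.5488 and 10.5478. The median difference of the 7 was -0.10, beside 0.01 over all genes tested. Of all 16144 genes 9504 had a positive difference, and every count of positive genes in a list is to be read beside that share.

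**Figure D1:**
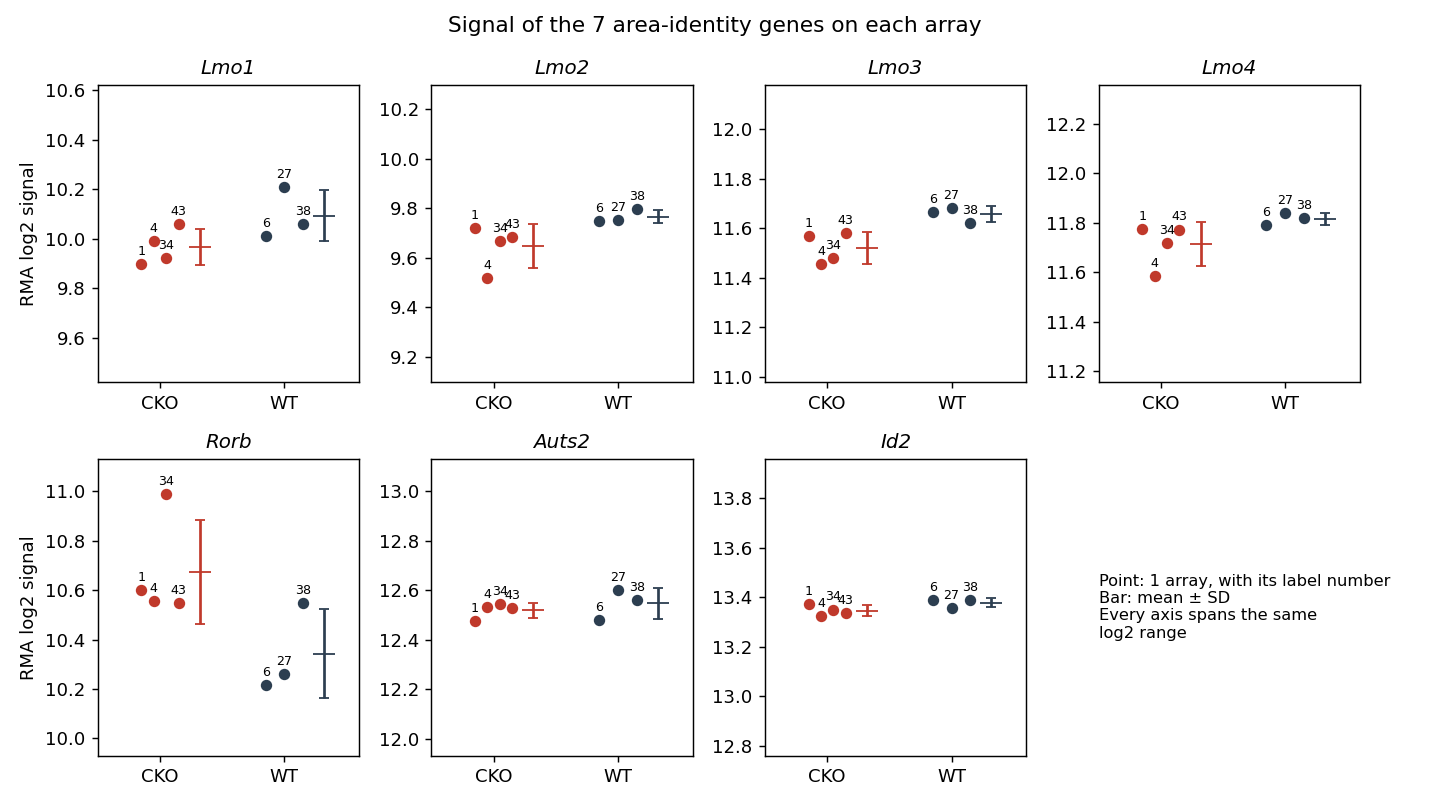
RMA log2 signal of each of the 7 genes (vertical axis, the same span in every panel) on the CKO and WT arrays; each point is 1 array with its label number, and bars give the mean and SD (n = 4 CKO, n = 3 WT). The LIM-only genes sit slightly lower in CKO, Rorb is higher and widely spread in both groups, and Id2 spans 0.048 among CKO arrays.

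Promoter sequences are shown for Lmo3 and Rorb, the 2 genes of the 7 with an unadjusted p under 0.05 and opposite signs. RefSeq windows of 300 bases on GRCm38.p6 were given for Lmo1, Lmo3, Lmo4, Rorb and Id2, 9 windows in all; Lmo2 and Auts2 are the other 2 genes. Both windows run 5′ to 3′ on the minus strand, from 250 bases before the start to 50 after it, and capitals mark CANNTG, the E-box bound by the E proteins that ID2 opposes and that LMO2 complexes read in blood cells. The Lmo3 window is chr6:138581919-138582218 and the Rorb window, one of 2 for that gene, is chr19:19111147-19111446.
Lmo3: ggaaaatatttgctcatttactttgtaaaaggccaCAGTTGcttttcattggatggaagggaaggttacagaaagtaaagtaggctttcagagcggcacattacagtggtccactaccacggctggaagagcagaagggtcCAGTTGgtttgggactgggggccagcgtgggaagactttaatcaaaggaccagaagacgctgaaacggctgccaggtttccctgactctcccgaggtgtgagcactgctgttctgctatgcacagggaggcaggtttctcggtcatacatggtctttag
Rorb: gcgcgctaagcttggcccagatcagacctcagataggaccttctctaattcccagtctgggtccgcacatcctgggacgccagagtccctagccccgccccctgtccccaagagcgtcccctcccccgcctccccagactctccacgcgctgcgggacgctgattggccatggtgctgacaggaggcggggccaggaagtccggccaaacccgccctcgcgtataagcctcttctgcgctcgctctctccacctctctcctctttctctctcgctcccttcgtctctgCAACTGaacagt

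The Lmo3 window held 2 matches to CANNTG and the Rorb window 1, and 72.3% of all 32851 promoter windows of the table hold at least 1. AGGTCA, the half-site read by COUP-TF and ROR receptors, was searched on both strands and had 0 matches in the 9 windows, where 16.3% of all windows hold it. GATAA, the core read by GATA factors, was also searched on both strands and had 1 match, in the second Rorb window, where 25.4% of all windows hold it. Of these motifs the windows shown hold only CANNTG, and a window without a match says nothing of binding elsewhere.

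Lmo3, a LIM-only gene expressed mainly in the nervous system, had the smallest p of the 4. Its log2 signal was 11.57, 11.45, 11.48 and 11.58 on CKO 1, CKO 4, CKO 34 and CKO 43, and 11.67, 11.68 and 11.62 on WT 6, WT 27 and WT 38. Every CKO array lay below every WT array, and the gap between the groups was 0.040. CKO arrays averaged 11.52 ± 0.064 (SD, n = 4) and WT arrays 11.66 ± 0.031 (SD, n = 3). The difference was -0.14 (SE 0.045, limma adjusted p 0.711), or 0.910 of the WT signal with a 95% interval of 0.847 to 0.978. A two-sided exact permutation test over the 35 splits of the arrays gave p = 0.0571, where the smallest possible is 0.0286. Within lot 2 the difference was -0.12.

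Lmo4, a LIM-only gene that is graded across the cortical sheet with high expression in rostral motor areas, showed a smaller difference. Its log2 signal was 11.77, 11.59, 11.72 and 11.77 on CKO 1, CKO 4, CKO 34 and CKO 43, and 11.79, 11.84 and 11.82 on WT 6, WT 27 and WT 38. The groups did not overlap, but CKO 1 and CKO 43 lay close under the lowest WT array, with a gap of 0.016, and CKO 4 stood lowest. The difference was -0.10 (SE 0.053, limma adjusted p 0.730), or 0.931 of the WT signal with a 95% interval of 0.856 to 1.01, and the exact permutation p was 0.0857. Without CKO 4 it was -0.06.

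Lmo2, known for its part in blood and vessel formation, gave the same picture on another probe set. Lmo2 had a log2 signal of 9.72, 9.52, 9.67 and 9.69 on CKO 1, CKO 4, CKO 34 and CKO 43, and 9.75, 9.75 and 9.80 on WT 6, WT 27 and WT 38. The groups did not overlap, with a gap of 0.032, and CKO 4 was again the lowest array. The difference was -0.12 (SE 0.053, limma adjusted p 0.726), or 0.921 of the WT signal with a 95% interval of 0.846 to 1.00, and the exact permutation p was 0.0571. Without CKO 4 it was -0.08.

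Markers of endothelial and blood cells, where Lmo2 is best known, mostly had positive differences, as did 9504 of all 16144 genes tested. Of 10 endothelial markers 9 were positive, with a median of 0.04 and 0 passing with limma (0 at an unadjusted p under 0.05); the smallest p-values belonged to Eng, a TGF-beta coreceptor (0.12, SE 0.057), and Cdh5, the endothelial cadherin (0.13, SE 0.065). Averaged per array relative to the mean of the 7, endothelial markers ran from -0.03 to 0.12 in CKO and from -0.10 to 0.02 in WT. Of 10 blood cell markers 5 were tested, and all 5 were positive, with a median of 0.13. The red cell anion exchanger gene Slc4a1 differed by 0.13 (SE 0.073) and the embryonic globin gene Hbb-y by 0.75 (SE 0.449). Blood cell markers averaged -0.05 to 0.31 in CKO and -0.49 to 0.10 in WT. The part of endothelial or blood cells in the Lmo2 difference was not tested.

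Lmo1, a LIM-only gene of the developing nervous system, was the 1 LIM-only gene whose groups overlapped. Lmo1 had a log2 signal of 9.90, 9.99, 9.92 and 10.06 on CKO 1, CKO 4, CKO 34 and CKO 43, and 10.01, 10.21 and 10.06 on WT 6, WT 27 and WT 38. CKO 43 lay above WT 6 and just below WT 38, and WT 27 was the highest of the 7. The difference was -0.13 (SE 0.061, limma adjusted p 0.727), with an exact permutation p of 0.114. Without WT 27 it was -0.07.

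The 3 LIM-only genes without overlap were close to each other over the 7 arrays, by a measure that includes the group difference they share. Likeness was measured as the root mean square difference between the log2 signals of a pair of genes over the 7 arrays, each gene centred on its own mean. Lmo4 differed from Lmo2 by 0.022, and 3 of 16143 other genes were closer to Lmo2. Lmo4 differed from Lmo3 by 0.039 and Lmo2 from Lmo3 by 0.047, where Lmo4 ranked 25th and Lmo2 76th among the genes closest to Lmo3. The spread of each around its own mean was 0.084 for Lmo2, 0.081 for Lmo3 and 0.078 for Lmo4. All 3 were lowest on CKO 4 and next lowest on CKO 34. Lmo1 was lowest on CKO 1 and differed from Lmo2 by 0.10, from Lmo3 by 0.076 and from Lmo4 by 0.091. Measured this way, the 2 genes closest to Lmo2 were Tsga10 (0.016) and Cfap57 (0.018). Those closest to Lmo4 were Cfap57 (0.019) and Tmem29 (0.020). Those closest to Lmo3 were Abhd6 (0.020) and Armcx4 (0.025), and those closest to Lmo1 were Cep19 (0.034) and Fst (0.038). The 7 points share their arrays and normalization, and closeness over so few is a description.

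Hippocampal markers, averaged per array, were lowest on CKO 34 and CKO 4, but of the 8 tested only Nrp2 had both as its 2 lowest arrays. Nrp2 was lowest on CKO 4 and next lowest on CKO 34, whereas Grp was lowest on CKO 1 and several others on WT 27 or WT 38. Relative to the mean of the 7 arrays the list averages stood at 0.01, -0.07, -0.12 and 0.01 on CKO 1, CKO 4, CKO 34 and CKO 43, and at 0.07, 0.09 and 0.01 on WT 6, WT 27 and WT 38. On the same scale Lmo3 stood at -0.01, -0.12, -0.10 and 0.0023 on the CKO arrays and at 0.09, 0.10 and 0.04 on the WT arrays. Of 8 hippocampal markers tested 5 were negative, with a median of -0.03; the neuropeptide gene Grp differed by -0.45 (SE 0.107) and the semaphorin receptor gene Nrp2 by -0.37 (SE 0.130), and 0 passed with limma (2 at an unadjusted p under 0.05). Their part in the Lmo3 difference was not tested.

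**Figure D2:**
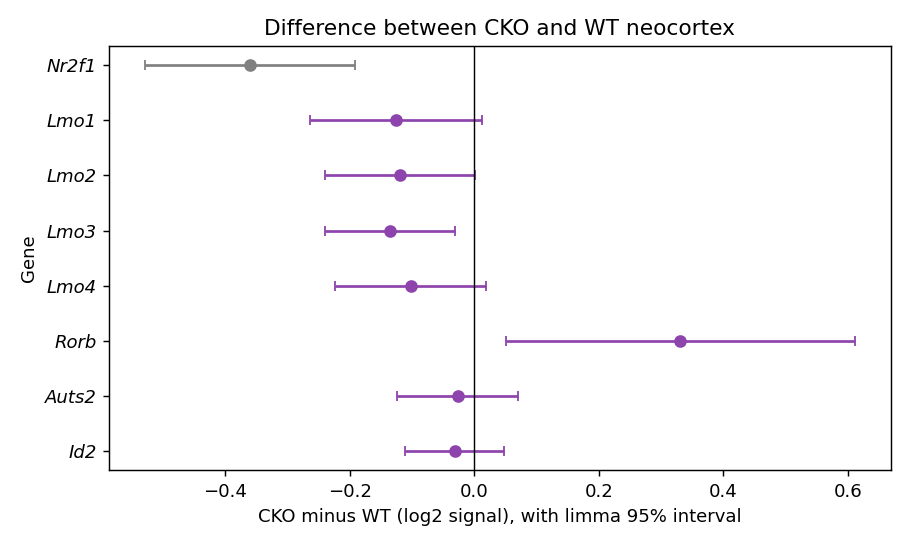
Difference in log2 signal, CKO minus WT (horizontal axis), for Nr2f1 and the 7 genes; points are limma estimates from 4 CKO and 3 WT arrays and bars are 95% intervals, not adjusted over genes. The intervals of Lmo3 and Rorb leave out 0, those of Lmo1, Lmo2, Lmo4, Auts2 and Id2 hold it.

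Rorb, a nuclear receptor of the ROR family that marks layer 4 and is densest in primary sensory areas, was the 1 gene of the 7 with a positive difference. Signals of Rorb were 10.60, 10.55, 10.99 and 10.55 on CKO 1, CKO 4, CKO 34 and CKO 43, and 10.22, 10.26 and 10.55 on WT 6, WT 27 and WT 38. CKO 34 stood far above the other CKO arrays, and WT 38 far above the other WT arrays, so the groups were parted by a gap of only 0.000949 between CKO 43 and WT 38. CKO arrays averaged 10.67 ± 0.211 (SD, n = 4) and WT arrays 10.34 ± 0.180 (SD, n = 3). The difference was 0.33 (SE 0.122, limma adjusted p 0.722), or 1.26 of the WT signal with a 95% interval of 1.04 to 1.53. The two-sided exact permutation p was 0.0286, the smallest that 35 splits allow. Within lot 2 the difference was 0.36 and without CKO 34 it was 0.23. Without WT 6 it was 0.27 and without WT 27 it was 0.29, and in both cases the unadjusted p was above 0.05. The residual SD of Rorb, 0.199, lay above that of 97.2% of genes.

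ROR receptors and other layer 4 genes differed in both directions. Of 10 ROR receptors and layer 4 genes tested 4 were positive and 6 negative, with a median of -0.02, and 0 passed with limma (1 at an unadjusted p under 0.05). The smallest p-values belonged to Kcnip2, a potassium channel interacting protein (0.14, SE 0.047), and Kcnh5, a potassium channel gene (-0.08, SE 0.040). Kcnip2 lay higher in CKO without overlap between the groups, as did 5.39% of all genes. Rora, the paralogue of Rorb, differed by -0.02 (SE 0.035). Thsd7a, a layer 4 marker, differed by -0.11 (SE 0.149) and Rspo1, a secreted Wnt agonist of layer 4, by -0.03 (SE 0.204). The part of layer 4 cells in the Rorb difference was not tested.

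The genes closest to Rorb over the 7 arrays encode collagen. Col1a1, the alpha 1 chain of type I collagen, differed from it by a root mean square of 0.036 and Col1a2, the alpha 2 chain, by 0.056, where Rorb's spread around its own mean was 0.235. Col1a1 had 9.03, 8.96, 9.40 and 8.94 on CKO 1, CKO 4, CKO 34 and CKO 43, and 8.62, 8.76 and 8.93 on WT 6, WT 27 and WT 38. As for Rorb, CKO 34 was the highest array, WT 38 the highest WT array and WT 6 the lowest of all. The difference was 0.31 (SE 0.119) for Col1a1 and 0.33 (SE 0.104) for Col1a2.

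A list of meningeal and fibroblast markers was therefore read out, chosen after these values were seen and so no independent evidence. Of 14 markers 11 were tested, and Lum, Ogn and Aldh1a2 lay below the filter. The 11 include Col1a1 and Col1a2, which prompted the list, and both enter its counts and its array means. All 11 were positive, with a median of 0.21; 0 passed with limma over all genes and 6 had an unadjusted p under 0.05, led by Islr (0.27, SE 0.070) and the GABA and taurine transporter gene Slc6a13 (0.22, SE 0.064). Averaged per array they stood at 0.10, 0.01, 0.17 and 0.05 on CKO 1, CKO 4, CKO 34 and CKO 43, and at -0.14, -0.10 and -0.09 on WT 6, WT 27 and WT 38. Striatal markers stood at 0.16, -0.05, 0.33 and 0.12 on the CKO arrays and at -0.16, -0.30 and -0.10 on the WT arrays. All 11 striatal markers tested were positive, with a median of 0.24; 0 passed with limma and 6 had an unadjusted p under 0.05, led by Ppp1r1b, the DARPP-32 gene (0.43, SE 0.068), and Zfp503 (0.24, SE 0.063). The means of both lists were highest on CKO 34, the array with the highest Rorb. Single genes did not all follow: Islr was highest on CKO 34, Ppp1r1b on CKO 4, and Zfp503 and Slc6a13 on CKO 43. The part of meningeal, fibroblast or striatal tissue in the Rorb difference was not tested.

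**Figure D3:**
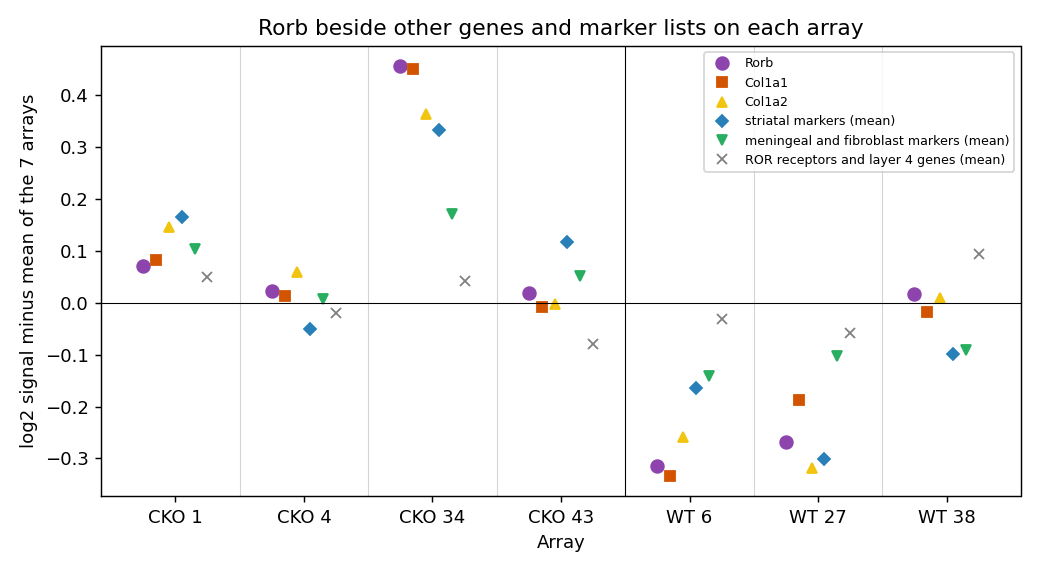
Log2 signal minus the mean of the 7 arrays (vertical axis) for Rorb, Col1a1 and Col1a2 and for the mean of 3 marker lists, on each CKO and WT array (horizontal axis); each symbol is 1 gene or 1 list mean on 1 array. Rorb and both collagen genes are highest on CKO 34, as are the means of the striatal and meningeal lists, whereas the mean of the layer 4 genes is highest on WT 38 at 0.09.

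Auts2, a regulator of neuronal gene expression and the cytoskeleton that is high in frontal neocortex, was close to equal in both groups. Signals of Auts2 were 12.48, 12.53, 12.54 and 12.53 on CKO 1, CKO 4, CKO 34 and CKO 43, and 12.48, 12.60 and 12.56 on WT 6, WT 27 and WT 38. The CKO arrays all lay within the WT range except CKO 1, which lay just under WT 6. The difference was -0.03 (SE 0.043, limma adjusted p 0.888), and the 95% interval ran from 0.917 to 1.05 of the WT signal. The exact permutation p was 0.400. The 2 closest genes were Mllt11 (0.010) and the ephrin receptor gene Epha3 (0.012).

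Id2, an inhibitor of basic helix-loop-helix factors with sharp area borders in the postnatal cortex, varied least. Its log2 signal was 13.37, 13.32, 13.35 and 13.34 on CKO 1, CKO 4, CKO 34 and CKO 43, and 13.39, 13.36 and 13.39 on WT 6, WT 27 and WT 38. The groups overlapped through CKO 1 and WT 27. The difference was -0.03 (SE 0.035, limma adjusted p 0.830), with a 95% interval of 0.926 to 1.03 of the WT signal. The exact permutation p was 0.114. Its residual SD, 0.020, was lower than that of nearly all genes, at the 1.46 percentile. The 2 closest genes were Fchsd2 (0.0074) and Tubgcp2 (0.0095). A difference in whole-neocortex signal of the size seen for Rorb lies outside the intervals of Auts2 and Id2; these intervals say nothing of shifts between areas that leave the total equal.

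Genes that work with the LIM-only proteins did not share their direction as a group. Of 19 LIM-only partners tested, 13 were positive and 6 negative, with a median of 0.04; 0 passed with limma and 2 had an unadjusted p under 0.05, both higher in CKO. These were Isl1, a LIM-homeodomain gene that is also a striatal marker here (0.83, SE 0.281), and Lyl1, a helix-loop-helix partner of LMO2 in blood (0.16, SE 0.066). Isl1 had 8.86, 7.74, 8.70 and 8.73 on CKO 1, CKO 4, CKO 34 and CKO 43, and 7.91, 7.23 and 7.89 on WT 6, WT 27 and WT 38, so CKO 4 lay within the WT range. The adaptor gene Ldb1 differed by 0.02 (SE 0.047), its paralogue Ldb2 by -0.05 (SE 0.038), and the cofactor gene Ssbp2 by -0.14 (SE 0.065).

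Relatives and partners of Id2 and Auts2 were mostly positive, as were 9504 of all 16144 genes tested. Of 6 other Id genes and E protein genes 5 were positive, with a median of 0.04 and 0 passing with limma (0 at an unadjusted p under 0.05). The E protein gene Tcf3 (0.09, SE 0.047) and Id4, an Id gene of neural progenitors (0.16, SE 0.086), had the smallest p-values. Of 13 AUTS2 relatives and partners 11 were positive, with a median of 0.04 and 0 passing with limma (0 at an unadjusted p under 0.05). Ring1 (0.09, SE 0.045) and Pcgf5 (0.14, SE 0.091), both subunits of Polycomb repressive complex 1, had the smallest p-values. For 2 of the 13, Ring1 and Yaf2, the CKO arrays lay above the WT arrays without overlap, as for 5.39% of all genes.

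Other area genes differed in both directions. Of 15 area patterning factors 12 were positive, with a median of 0.07 and 0 passing with limma (3 at an unadjusted p under 0.05). Next to Nr2f1 the smallest p belonged to Emx2, a homeobox gene that promotes caudal area fates (0.29, SE 0.093). Of 8 rostral and motor markers 6 were positive, with a median of 0.09; the ETS factor gene Etv5 differed by 0.32 (SE 0.062) and the cadherin gene Cdh8 by -0.14 (SE 0.059). Of 8 sensory and caudal markers 5 were negative, with a median of -0.08; the teneurin gene Tenm3 differed by -0.48 (SE 0.084) and the Wnt ligand gene Wnt7b by -0.22 (SE 0.070). Crabp1, a retinoic acid binding protein gene of the same list, went the other way, by 0.40 (SE 0.125). Crabp1 and the rostral marker Etv5 lay higher in CKO without overlap between the groups, as did 5.39% of all genes. Tenm3 was 1 of 2 sensory markers that lay lower without overlap, as did 2.99% of all genes. No gene of these 2 lists passed with limma; 1 rostral marker was higher and 1 lower at an unadjusted p under 0.05, and 1 sensory marker was higher and 3 were lower. Lmo4, which is high rostrally, had a negative difference where 6 of 8 rostral markers had positive ones, as did 9504 of all 16144 genes. Rorb, which is dense in sensory areas, had a positive difference, as did 3 of 8 sensory markers, where the other 5 had negative ones. Neither contrast between signs was tested.

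**Figure D4:**
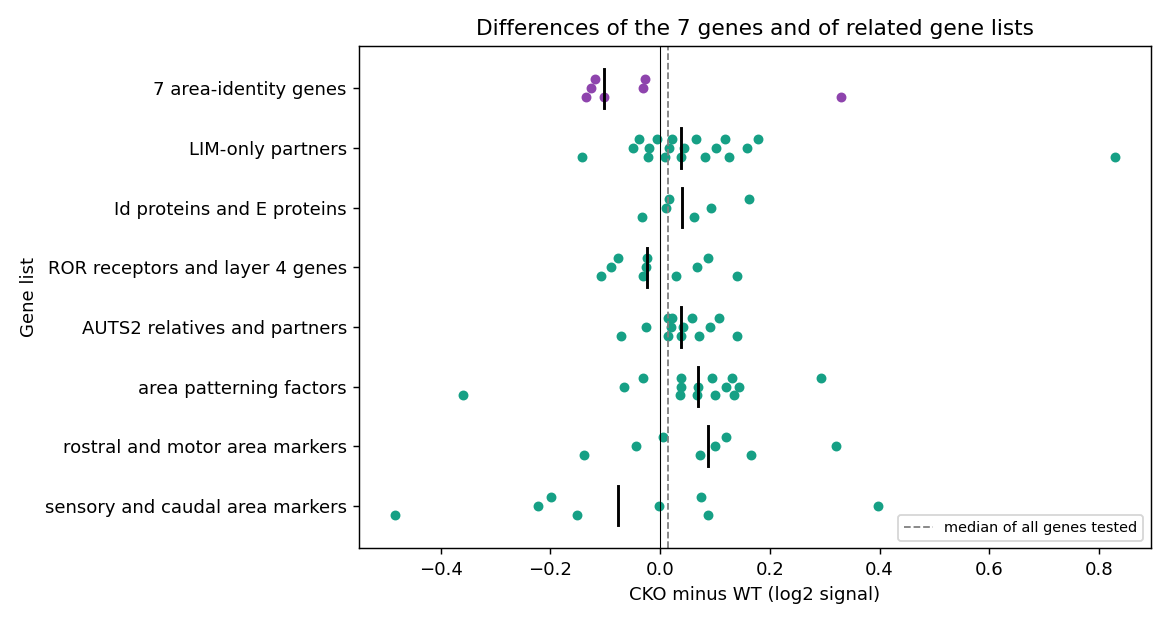
Difference in log2 signal, CKO minus WT (horizontal axis), of the 7 genes and of each tested gene in 7 related lists; points are genes, black bars are medians and the dashed line is the median of all 16144 genes (0.01). The 7 genes have a median of -0.10, with Rorb alone on the right, while the rostral list has a median of 0.09 and the sensory list of -0.08.

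Interneuron and thalamic markers, other cells that a neocortical sample can hold, differed in both directions. Of 12 interneuron markers 7 were positive, with a median of 0.10 and 0 passing with limma (4 at an unadjusted p under 0.05, 2 higher and 2 lower in CKO). The neuropeptide gene Npy differed by -0.51 (SE 0.064) and the serotonin receptor gene Htr3a by -0.60 (SE 0.166), while the homeobox genes Dlx2 and Dlx5 differed by 0.51 (SE 0.178) and 0.39 (SE 0.116). Of 8 thalamic markers 5 were positive, with a median of 0.07; Plekhg1 differed by 0.22 (SE 0.056) and the factor gene Tcf7l2 by 0.08 (SE 0.059), and 0 passed with limma (1 at an unadjusted p under 0.05).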

How the data were processed

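RNA of 4 CKO and 3 WT samples was measured on 7 Affymetrix arrays, 1 colour each. Values are log2 signals as the authors deposited them; RMA and Affymetrix Expression Console are named in the submitters' processing notes, and no version or build is given there. The median log2 signal was 8.23 on every array. Of 35468 probe sets 21786 had 1 gene symbol, 1621 several and 12061 none. Probe sets with a mean below the 25th percentile (6.84) were left out and the brightest stood for each gene. All arrays entered 1 limma 3.58.1 fit of CKO against WT in R 4.3.3 (lmFit, eBayes, no covariate), with Benjamini-Hochberg adjustment over 16144 genes at 0.05; the fit was tested on simulated data. SE are limma's. No set tests were run. Named genes are the 7 members, the 2 smallest p-values of each list, Nr2f1 and the 2 closest genes of each member; Crabp1, Dlx2, Dlx5, Yaf2, Rora, Thsd7a, Rspo1, Ldb1, Ldb2 and Ssbp2 were named after their values were seen. Members and lists were chosen with earlier results of these data known. The number of arrays limits the precision. Promoter sequences are RefSeq's. Figures used matplotlib 3.10.9. Alternatives were another normalization, filters, probe set averaging, variance model, array weights, lot and leaving out each array.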

Additional observations from a re-analysis of the deposited data

Results flagged for a closer look

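Rorb on CKO 34 stood apart from the other CKO arrays: at 10.99 against 10.55 to 10.60, its gap to the nearest was 0.881 of the range of the 4 arrays, above Dixon's 95% critical value for 4 samples. Chance alone marks about 5% of groups in this way, and 7 genes were examined in the CKO group. Without CKO 34 the difference of Rorb was 0.23 (SE 0.087, limma adjusted p 0.690).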

How the results depend on the processing

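Each result was recomputed under 16 alternatives, not all of which could move the difference of a member. With 1 probe set per member, the changed filters, probe set averaging and the other variance model left every member's difference as it was. The fixed lot block gave the same differences as lot 2 alone, because the other lots each held 1 group. The 4 LIM-only genes, Rorb and Id2 kept the sign of their difference under all 16, and 0 members passed an adjusted p of 0.05 with limma under any of them. The ranges were -0.17 to -0.07 for Lmo1, -0.14 to -0.08 for Lmo2, -0.16 to -0.11 for Lmo3, -0.12 to -0.06 for Lmo4, 0.23 to 0.43 for Rorb and -0.04 to -0.02 for Id2. Auts2 ran from -0.0616 to 0.00067, its 1 positive value, which came without WT 27. Unadjusted p ran from 0.0096 to 0.103 for Lmo3 and from 0.0107 to 0.115 for Rorb with limma, and both lost a p under 0.05 with array weights, with the fixed lot block and within lot 2. The number of genes called over the whole table, 4, was 0 with a fixed lot block (611 genes had an unadjusted p under 0.05), 0 within lot 2 alone (486) and 1 with array weights, and ran from 1 to 6 when single arrays were left out. The number of members without overlap between groups, 4, was 7 within lot 2, where 30.4% of all genes did not overlap among 2 CKO and 2 WT arrays, and ran from 4 to 6 when single arrays were left out, where 9.76% to 23.2% of all genes did not overlap (6 members against 17.8% without WT 6). No paired analysis was possible because no label number is shared by the 2 groups.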
